A study of Rattus norvegicus with 6 samples.

Results

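The circular RNAs (circRNAs) described here were abundant in rat dental follicle cells and had back-splice ends that no other listed circRNA used. They were chosen by coordinates and counts in the deposited table, whose circRNA coordinates are on the rat build Rnor_6.0. Exons and introns of that build were not assigned here. A circRNA was kept where its span on the genome was at least 300 nt and under 50000 nt and its counts in the induction and control columns summed to at least 50. Neither its start nor its end could recur on the same chromosome in another row, and rows naming a collagen gene were left out. Of 4143 listed circRNAs, 946 had at least 50 counts, 792 of these had the required span and 693 of these named no collagen. An end was shared with another row in 404 of the 693, which left 289 circRNAs with unique ends. Because the summed counts chose them, their levels and ranks are given as descriptions.

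Dental follicle cells form the sac of connective tissue that encloses a tooth germ, and some of them can form cementum, periodontal ligament and bone. The cells came from mandibular molar tooth germs of Sprague-Dawley rats aged 5 to 7 days. Induced cells were kept for 28 days in medium with 5% fetal bovine serum and 1% of an osteogenic liquid. The labels give this liquid's ascorbic acid as 0.028 mmol/L, its dexamethasone as 0.010 mmol/L and its β-glycerophosphate as 1.000 mol/L. Control cells were kept for the same time in that medium with 5% serum and without the liquid. The labels name 3 induction and 3 control samples, while 3 rats stand in the treatment protocol and 4 in the design text. Nothing in the labels ties a sample number to a rat. DNA and linear RNA were removed before sequencing. The table held 1 pooled count column per group, so no replicate spread and no test of the conditions was available.

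A circRNA forms when the spliceosome joins the end of an exon to the start of the same or an earlier exon of the same transcript. The closed molecule has no free ends, is spared by exonucleases, and is detected by reads that cross this back-splice junction. Paired inverted repeats in the flanking introns and several RNA-binding proteins favour back-splicing, and some host genes give 1 circRNA while others give many from alternative start and end exons. For a circRNA with unique ends, each splice site was seen in 1 back-splice pairing of the table.

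The listed counts came to 164746 in the induction column and 137740 in the control column. The ratio of induction over control was taken on the larger totals behind the authors' TPM values, 221596 for induction and 203283 for control. Each ratio has an exact 95% Clopper-Pearson interval on the split of the 2 counts. These intervals cover counting error only and hold neither variation between rats nor copies of 1 molecule made by PCR. A circRNA is called higher or lower where the ratio was at least 2-fold and its interval excluded equal levels. Over all listed circRNAs, 18.5% were called, 9.22% higher and 9.29% lower in induction. Of the dental follicle and fibroblast markers, 7 of 12 genes hosted listed circRNAs, among them Prrx1, Cdh11 and Runx2, but none hosted one of the 289. Col1a1 and Col3a1, which are among the 7, were left out by their collagen names. The others can be absent through the limits on counts, span or ends. Of 8 osteoblast markers, Runx2 alone hosted listed circRNAs, with 1378 induction and 655 control counts in all. None of 8 epithelial markers hosted one. Listed circRNAs of leukocyte markers came from Dock8 (19 induction and 29 control counts), and those of muscle and nerve markers from Dmd and Rims2 (18 induction and 14 control counts). The endothelial marker Flt1 hosted 1 circRNA, which had unique ends, with 50 induction and 48 control counts. The part of other cell types in the results was not tested. In RNA from a whole culture, fewer cells of a type and less RNA per cell cannot be told apart.

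Upstream sequence of 3 host genes is shown as the DNA that starts the transcripts from which these circles are cut. Pik3r1 hosted the circRNA with the largest ratio, Tll1 1 of the 10 with the lowest ratios, and Svep1 1 of the steadiest abundant ones. The windows are from RefSeq on assembly GRCr8, with 250 bases before and 50 after a listed start of the gene. They lie at chr2:34697611-34697910 on the minus strand, chr16:30275242-30275541 on the plus strand and chr5:77783243-77783542 on the minus strand. Capitals mark matches to 5 short motifs, searched on both strands: the GC box GGGCGG, the CCAAT box CCAAT, the TATA box TATAAA, the Runx site TGTGGT and the glucocorticoid receptor half-site AGAACA.
Pik3r1: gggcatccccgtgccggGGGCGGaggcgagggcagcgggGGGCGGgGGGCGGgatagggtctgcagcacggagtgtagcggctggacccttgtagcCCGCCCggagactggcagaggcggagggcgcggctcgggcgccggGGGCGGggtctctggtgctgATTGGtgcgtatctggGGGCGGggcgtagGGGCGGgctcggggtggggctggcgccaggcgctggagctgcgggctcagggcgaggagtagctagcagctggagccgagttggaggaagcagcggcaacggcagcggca
Tll1: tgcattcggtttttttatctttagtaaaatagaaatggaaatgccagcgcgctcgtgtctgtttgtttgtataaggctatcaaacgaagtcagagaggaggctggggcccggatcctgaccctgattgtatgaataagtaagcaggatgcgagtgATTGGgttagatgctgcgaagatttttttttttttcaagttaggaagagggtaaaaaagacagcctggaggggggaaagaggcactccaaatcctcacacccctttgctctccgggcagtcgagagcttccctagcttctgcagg
Svep1: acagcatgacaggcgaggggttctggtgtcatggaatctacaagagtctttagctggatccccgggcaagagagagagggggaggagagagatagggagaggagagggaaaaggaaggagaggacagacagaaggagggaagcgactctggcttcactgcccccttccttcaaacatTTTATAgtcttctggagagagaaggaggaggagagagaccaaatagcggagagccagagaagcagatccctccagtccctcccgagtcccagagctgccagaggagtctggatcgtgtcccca
The Pik3r1 window held 7 GC boxes and 1 CCAAT box on the reverse strand. The Tll1 window held 1 CCAAT box on the reverse strand, and the Svep1 window 1 TATA box match on the reverse strand. Such matches describe letters and do not show that a factor binds.

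Over the 207 host genes of circRNAs with unique ends for which RefSeq gave a promoter, the GC box occurred in 71.5% of windows. It occurred in 67.0% of 191 promoters of genes hosting abundant circRNAs with a shared end, in 70.5% of 1117 promoters of other listed hosts and in 43.1% of 18999 promoters of protein-coding genes in all. The TATA box occurred in 6.28% of promoters of hosts with unique ends, against 13.1% over all protein-coding genes, and the Runx site in 8.21%, against 15.8%. The glucocorticoid receptor half-site occurred in 10.1%, against 17.7%. These shares of motifs were close to those of the other circRNA hosts, with 5.46% for the TATA box, 9.40% for the Runx site and 9.67% for the half-site in the 1117 promoters. Among hosts of circRNAs higher in induction (33 promoters) the half-site was in 6.06% of windows, and among hosts of circRNAs lower in induction (28 promoters) in 3.57%.

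Gene names that recur on several chromosomes, or at places over 5 Mb apart on 1 chromosome, were set aside, and the host was the only name that then remained. This gave 260 of the 289 circRNAs a host among 249 genes, and the other 29 carried only names of this multi-copy kind. RefSeq's gene table for GRCr8 held 243 of the 249 hosts, 231 by symbol, 10 by synonym and 2 by gene identifier. All 243 were protein-coding genes. Most hosts were used once, since 238 gave 1 circRNA with unique ends and 11 gave 2. For 160 of the 260 circRNAs no other row was given the same host. Of the 4143 listed circRNAs 3703 were given a host, so further circles of a gene can be missed among the rest. For the other 100 the host gave more circles, and 81 of these were the most abundant of their host. Their median share of all counts from the host was 66.4%, with quartiles of 48.3% and 82.4% and a range of 3.98% to 95.2%.

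The circles were short on the genome. Their span had a median of 2603 nt with quartiles of 1051 and 8029 nt, against a median of 7986.5 nt for the 404 abundant circRNAs that shared an end. The shortest spanned 305 nt and the longest 40705 nt. They lay on 21 chromosomes, with 30 on chromosome 1, 21 on chromosome 6, 20 on chromosome 2 and 4 on the X chromosome. Of the 289, 261 overlapped no other listed circRNA and 5 lay inside a longer one. Only 2 had an end within 10 nt of another row's end. The circRNA of Stk3, a kinase of the Hippo pathway, at chr7:73834040-73848867 had 38 induction and 37 control counts, and another row shifted by 4 nt at both ends had 278 induction and 151 control counts. The circRNA of Hibadh, a mitochondrial enzyme of valine breakdown, had 62 induction and 41 control counts, and a row whose start lay 4 nt away had 18 induction and 29 control counts. Whether both Stk3 rows list the same circle was not tested.

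Circles with unique ends held 11.8% of listed counts in induction (exact binomial 95% interval 11.7% to 12%) and 12.9% in control (12.7% to 13.1%). In counts this was 19453 in induction and 17767 in control, a ratio of 1.00 (0.984 to 1.03). A single circle had 9 to 646 counts in induction, with a median of 46, and 5 to 829 in control, with a median of 41. Summed counts ran from 50 to 1450, with a median of 88 and quartiles of 62 and 143. The abundant circles that share an end had a median sum of 102.5. The most abundant circle with unique ends ranked 27 among all listed circRNAs by summed counts, and 8 of the 289 were among the 100 most abundant.

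The circle of Btaf1 led in summed counts. Btaf1 encodes an ATPase that removes the TATA-binding protein from DNA. Its circRNA at chr1:255636891-255637533 spans 643 nt and had 646 counts in induction, against 804 in control. It was 1.36-fold lower in induction (1.22 to 1.51), a difference past counting error and short of 2-fold. It was the most abundant of these circles in induction and was second in control to a circle with multi-copy names at chr6:4518806-4520635. That circle had 288 counts in induction and 829 in control, 3.14-fold lower (2.74 to 3.60).

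Lrp6, the co-receptor with Frizzled proteins for Wnt ligands, gave 2 of the most abundant circles, and both were level between the columns. The circle at chr4:168219620-168221653 had 335 induction and 298 control counts, a ratio of 1.03 (0.880 to 1.21). The circle at chr4:168296980-168297373 had 231 induction and 214 control counts, a ratio of 0.990 (0.819 to 1.20). Between them they held most of the counts of this host, 56.1% and 39.4%. Chsy1, which builds chondroitin sulfate chains, had 275 induction and 303 control counts for its circle. Svep1, a large matrix protein with many adhesion domains, had 233 induction and 193 control counts for its circle (ratio 1.11, 0.911 to 1.35). Rab6a, a small GTPase of Golgi transport, had 236 induction and 183 control counts. Camk2d, a calcium and calmodulin-dependent kinase, had 220 induction and 182 control counts. In all of these except Chsy1, whose ratio was 0.833 (0.705 to 0.983), the interval included equal levels.

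Of the 20 circles with the highest sums, Ern1, Rps6kb1, Gtf2i, Wash1 and Pik3c2a had an interval above equal levels and were not called, since the ratio was under 2-fold. Ern1, the endoplasmic reticulum stress sensor IRE1 alpha, had 236 induction and 148 control counts (ratio 1.46, 1.19 to 1.81). Rps6kb1, the ribosomal S6 kinase, had 227 induction and 132 control counts (1.58, 1.27 to 1.97). Wash1, an actin nucleation factor on endosomes now named Washc1, had 194 induction and 120 control counts. Pik3c2a, a phosphoinositide kinase of vesicle traffic, had 202 induction and 97 control counts, and its ratio of 1.91 (1.49 to 2.46) fell just short of 2-fold. The unnamed gene model AABR07059639.1 gave a circle past 2-fold, with 272 induction and 67 control counts (3.72, 2.84 to 4.94). Of these 20, 3 were called higher, 2 were called lower and 13 lay within 1.5-fold, and 5 of the 20 carried multi-copy names alone. Among these 20, Gtf2i, a transcription factor, had 205 induction and 151 control counts, and Rnf169, which binds ubiquitin marks at DNA breaks, had 174 induction and 136 control counts.

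**Figure D1:**
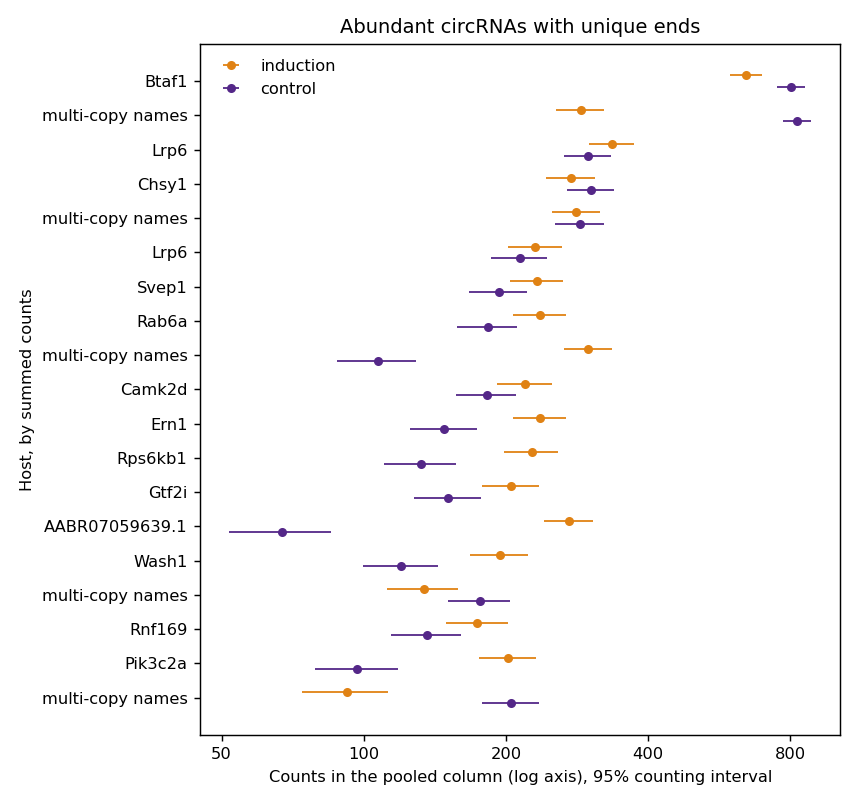
Counts in induction and control (log axis) of 19 of the 20 circRNAs with unique ends that had the highest summed counts, by host; points are counts and bars are exact Poisson 95% intervals, which cover counting error only. Btaf1 had 646 induction and 804 control counts, and Pik3c2a 202 induction and 97 control counts.

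The ranks of abundant circles overlapped between the columns in part. The 20 most abundant circles of each column shared 13 of 20, and the 50 most abundant shared 31 of 50. The top 20 held 25.9% of counts of circles with unique ends in induction and 26.6% in control. Over the 289 circles, the Spearman correlation of counts between the columns was 0.474 and Pearson's r of log2 counts was 0.539, each over 289 points that share the caller and the pooled libraries. For the 404 circles that share an end these were 0.687 and 0.752. The rule on summed counts limits the range of both sets, and a minimum sum by itself lowers such a correlation. Sums reached 1450 with unique ends and 6759 with a shared end, so the 2 sets are not alike in range. Within 50 to 99 counts the Spearman correlation was -0.377 with unique ends and -0.279 with a shared end. At 200 or more counts it was 0.307 and 0.598. The difference between the sets was not tested.

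**Figure D2:**
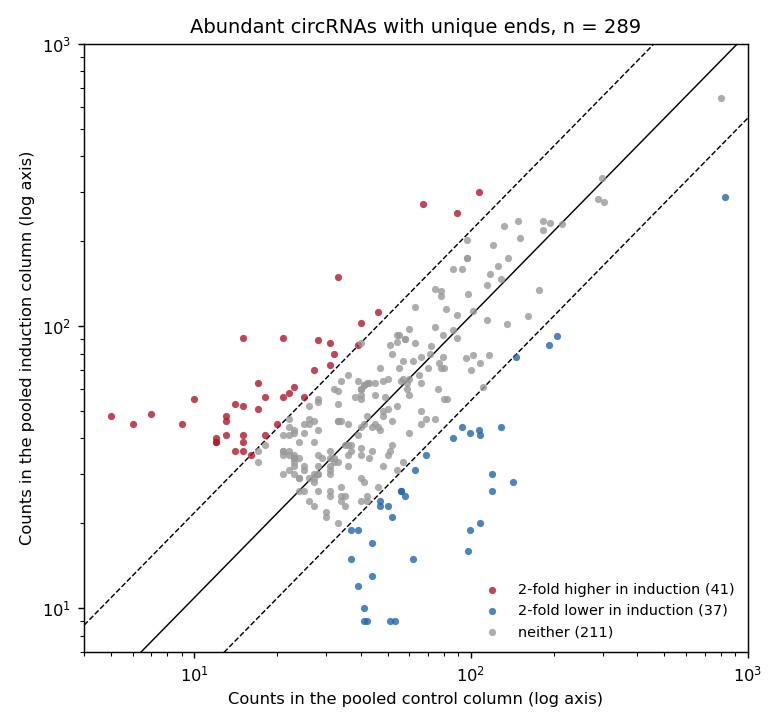
Counts in the pooled induction column (vertical, log axis) against counts in the pooled control column (horizontal, log axis), 1 point for each of the 289 circRNAs with unique ends. The solid line marks equal levels and the dashed lines 2-fold on the totals behind TPM; 41 circles were called higher (red), 37 lower (blue) and 211 neither (grey).

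Circles with unique ends differed between the columns in both directions and in near equal numbers. Of the 289, 41 were called higher in induction (14.2%, where 9.22% of all listed circRNAs were) and 37 lower (12.8%, where 9.29% were), and 211 were neither. Together 78 of 289 were called, 27.0%, where 18.5% of all listed circRNAs and 18.6% of the 404 circles with a shared end were. Within 1.5-fold lay 144 circles, 49.8%, against 58.2% of circles with a shared end and 42.0% of all listed circRNAs. The interval included equal levels for 152 circles, and for 59 it excluded equal levels at a ratio under 2-fold. Called ratios ran from 2.01 to 8.81 upwards, with a median of 2.75, and from 2.03 to 6.68 downwards, with a median of 2.71. The median log2 ratio over the 289 was 0.11, with quartiles of -0.46 and 0.65. Over all listed circRNAs it was -0.05. Of the 3197 circRNAs under 50 counts, whose intervals are wider, 501 were called. Another 782 of them had a ratio of at least 2-fold with an interval that included equal levels, and none of the 289 did. The share called over all listed circRNAs is thus not at like counts. By ratio alone, 73.0% of the 289 lay within 2-fold, against 81.4% of circles with a shared end and 62.6% of all listed circRNAs.

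The share called was lower in circles with more counts. Among circles with 50 to 99 counts, 48 of 162 with unique ends were called (29.6%), against 43 of 190 with a shared end (22.6%). With at least 100 and fewer than 200 counts the calls were 23 of 89 (25.8%) and 23 of 129 (17.8%), and with 200 or more 7 of 38 (18.4%) and 9 of 85 (10.6%). In each of these ranges the circles with unique ends were called in a larger share, which was not tested. The median width of the interval, its upper over its lower bound, was 2.96 at 50 to 99 counts, 2.12 in the middle range and 1.64 at 200 or more. By span, the share of circles with unique ends within 1.5-fold was 56.5% under 1000 nt, 52.1% at 1000 nt or more but under 5000 nt and 42.4% at 5000 nt or more. For circles with a shared end these shares were 65.7%, 51.7% and 60.2%, in no steady order. The share of circles with unique ends that was called was 26.1%, 28.1% and 26.3% over the same ranges. None of these differences was tested.

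**Figure D3:**
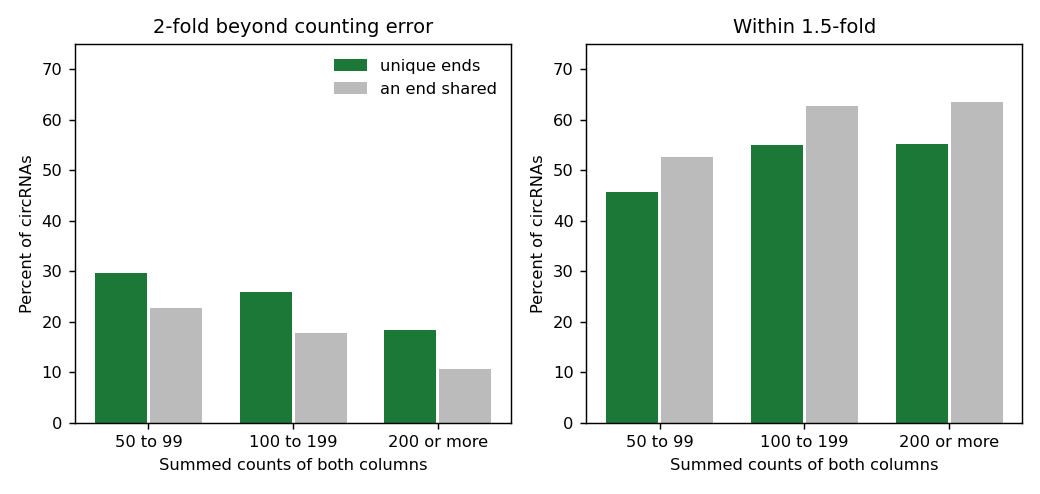
Percent of circRNAs called 2-fold different between the columns (left) and within 1.5-fold (right), by summed counts, for circRNAs with unique ends and for those that share an end. At 200 or more counts 18.4% of circles with unique ends and 10.6% of those with a shared end were called.

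Circles around the minimum of 50 counts had the widest intervals. The 20 circles with 50 to 52 counts included 12 called and 6 within 1.5-fold, and the 20 circRNAs just under the limit, with 47 to 49 counts, included 6 called and 7 within 1.5-fold. Exoc2, an exocyst subunit, had 33 induction and 17 control counts at the limit, and Wwp2, an E3 ubiquitin ligase, 23 induction and 27 control counts.

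The 10 largest ratios upwards came from hosts of varied function. Pik3r1, the regulatory subunit of phosphoinositide 3-kinase, gave a circle at chr2:31816052-31816763 with 48 induction and 5 control counts, a ratio of 8.81 (3.52 to 28.3). Mau2, a loader of cohesin, gave one with 49 induction and 7 control counts (6.42, 2.89 to 16.8). Ciz1, a nuclear matrix protein that binds cyclins, gave one at chr3:11394659-11396393 with 91 induction and 15 control counts (5.57, 3.20 to 10.3). These 3 circles had few control counts. The lower bound of the ratio lay above 2-fold for all of the 10 except the circle of Ppp1r12a (1.90). Cdc42bpa, a kinase acting on myosin, had 55 induction and 10 control counts, and Srp54a, a subunit of the signal recognition particle, 45 induction and 9 control counts. Aebp1, a secreted collagen-binding matrix protein, had 149 induction and 33 control counts (4.14, 2.83 to 6.24). Robo1, a Slit receptor, had 91 induction and 21 control counts, and Ppp1r12a, a myosin phosphatase subunit, 53 induction and 14 control counts. RGD1307100, a gene model without a further name, had 45 induction and 6 control counts.

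The 10 lowest ratios included both circles of Eln. Eln, the precursor of elastic fibres, gave 2 circles: one at chr12:25000564-25002081 with 16 induction and 98 control counts (6.68-fold lower, 3.91 to 12.1) and one at chr12:25016509-25016857 with 28 induction and 142 control counts (5.53-fold lower, 3.67 to 8.61). The third listed Eln circle, of 211 nt, had 2 induction and 17 control counts. Abi3bp, a matrix-associated protein, had 20 induction and 108 control counts (5.89-fold lower, 3.63 to 10.0). Tll1, a tolloid-like protease that cuts procollagens and chordin, had 15 induction and 62 control counts (4.51-fold lower, 2.53 to 8.53). All 3 listed circles of Tll1 were called lower. Other large differences were Afap1, which links actin filaments, with 9 induction and 53 control counts (6.42-fold lower, 3.14 to 14.8), and Nelfcd, part of the complex that pauses RNA polymerase II, with 9 induction and 51 control counts. Ube3a, an E3 ubiquitin ligase, had 26 induction and 119 control counts (4.99-fold lower, 3.24 to 7.95), and Cacul1, a protein with a cullin domain, 9 induction and 41 control counts. Circles with multi-copy names made up the remaining 2 of the 10, with 19 induction and 99 control counts in one and 9 induction and 42 control counts in the other.

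**Figure D4:**
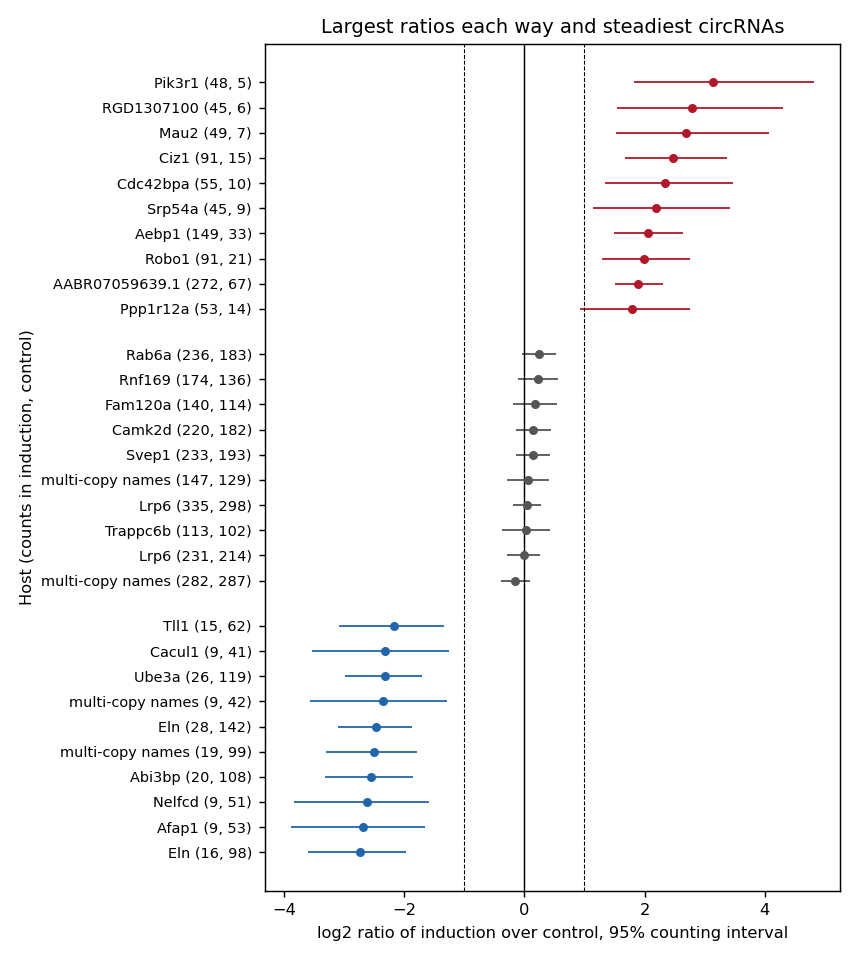
Log2 ratio of induction over control for the 10 largest ratios upwards (red), the 10 steadiest circles with 200 or more counts (grey) and the 10 lowest ratios (blue), with counts in induction and control in the labels and 95% counting intervals as bars. Pik3r1 stood at 3.14 and the lower Eln circle at -2.74, and the 2 Lrp6 circles stood at 0.04 and -0.01; dashed lines mark 2-fold.

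Circles of 1 host did not always share a call. For the 77 circles whose host had at least 20 counts in other listed circRNAs, the sum of those other circles was set beside the circle itself. Of 10 circles called higher, the others of the host were called higher for 1, lower for 2 and neither for 7. Of 12 called lower, the others were lower for 3 and neither for 9. Of the 55 called neither, the others were higher for 9, lower for 6 and neither for 40. Faf1, which binds Fas and ubiquitin, had 61 induction and 23 control counts for its circle with unique ends and 11 induction and 32 control counts for another circle. Aebp1 gave a second circle of 201 nt with 5 induction and 33 control counts. Afap1 gave a second circle with 34 induction and 32 control counts, near equal beside the lower one described above. Gucy1a2, a subunit of soluble guanylate cyclase, was higher in all 3 listed circles, 41 induction and 13 control counts for the one with unique ends.

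Of the 11 hosts with 2 circles with unique ends, Eln was the only one with both called, both lower. Lrp6, Abhd2, Kdm5a, Sipa1l1 and Spidr had neither called. Gnaq, the G protein alpha subunit of phospholipase C signalling, had 78 induction and 145 control counts for one circle (2.03-fold lower, 1.53 to 2.70, and at -0.96 on the log2 scale, short of 2-fold, with DESeq2 size factors) and 102 induction and 135 control counts for the other (1.44-fold lower). Uso1, a Golgi tethering factor, had 52 induction and 15 control counts for one and 71 induction and 55 control counts for the other, and these 2 circles overlap by 101 nt. Plcb4, a phospholipase C, had 51 induction and 17 control counts for one and 25 induction and 31 control counts for the other.

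Some host genes were also sorted into 12 lists by function, which held 85 of the 260 circles with a host. The other 175 were in no list, and the lists are not complete. They leave out Rps6kb1, the kinase Clk2 (86 induction and 39 control counts, called higher) and Abi3bp, described above as lower. Counts given by function below are those of the lists alone. The calls in each list are small counts, and no list was tested. They are to be read beside the 27.0% called over all 289 circles. The 18.5% over all listed circRNAs is not at like counts. The list of kinases and phosphatases gave 19 circles, 4 higher, 3 lower and 12 neither. Their median log2 ratio was 0.07, against 0.11 over all 289. Over all listed circRNAs of this list, 21 of 203 were higher and 16 lower, with a median of 0.12. The 4 higher ones were Pik3r1, Cdc42bpa, Ppp1r12a and Insr, the insulin receptor, with 73 induction and 31 control counts (2.16, 1.40 to 3.40). With totals of the listed counts Insr fell short of 2-fold, at 0.98 on the log2 scale. The lower ones were Epha7, an ephrin receptor, with 30 induction and 119 control counts (4.32-fold lower, 2.88 to 6.69), Tgfbr2, the type II TGF-beta receptor, with 44 induction and 93 control counts (2.30-fold lower, 1.59 to 3.38), and Oxsr1, a stress kinase, with 35 induction and 69 control counts. Hipk3, a kinase known for an abundant circRNA in many tissues, had 109 induction and 161 control counts, 1.61-fold lower (1.25 to 2.07) and short of the threshold. Igf1r, a growth factor receptor, had 63 induction and 42 control counts and its interval included equal levels.

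The list of matrix and secreted proteins gave 9 circles with a median of -0.26, of which 4 were lower, 1 higher and 4 neither. The lower ones were the Eln pair, Tll1 and Adamts12, a metalloprotease, with 23 induction and 47 control counts (2.23-fold lower, 1.33 to 3.84). The higher one was Aebp1. Pxdn, a peroxidase that crosslinks collagen IV, had 71 induction and 70 control counts, and Adamts10 had 54 induction and 28 control counts. Over all listed circRNAs of the same list, 13 of 99 were higher and 16 lower, with a median of 0.00.

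Ubiquitin ligases and deubiquitinases gave 12 circles, 2 higher, 1 lower and 9 neither, with a median of 0.22. Over all listed circRNAs of this list, 6 of 135 were higher and 12 lower, with a median of -0.12. Herc1, a large ligase, had 58 induction and 22 control counts (2.42, 1.46 to 4.15), and the lower circle was that of Ube3a. Small GTPase regulators gave 11 circles, 1 higher and 2 lower, where 14 of 146 were higher and 16 lower over all listed circRNAs of the list. Arhgef11, an exchange factor for RhoA, had 39 induction and 12 control counts (2.98, 1.53 to 6.25). Dock6, an exchange factor for Rac1 and Cdc42, had 13 induction and 44 control counts (3.69-fold lower, 1.95 to 7.47) and Ralgps2, one for Ral, 24 induction and 47 control counts. Nf1, a Ras GTPase activator, had 64 induction and 56 control counts.

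Over all listed circRNAs, chromatin genes had 15 of 128 higher and 9 lower, transcription factor genes 12 of 105 higher and 7 lower, and RNA-binding and RNA-processing genes 10 of 108 higher and 9 lower. Of 8 circles in the chromatin list 1 was called. It was that of Phf20, a histone reader, with 40 induction and 86 control counts (2.34-fold lower, 1.59 to 3.50). Ino80, a nucleosome remodeller, had 163 induction and 125 control counts, Hdac2, a histone deacetylase, 67 and 65, and Ehmt2, a histone methyltransferase, 74 and 77, in induction and control. Of 5 circles from transcription factor genes, that of Klf7 was higher, with 89 induction and 28 control counts (2.92, 1.89 to 4.63). Runx1, a relative of the osteoblast regulator Runx2, had 33 induction and 23 control counts, and Tead1, the partner of YAP, 78 induction and 66 control counts. None of 5 circles from RNA-binding and RNA-processing genes was called: Fam120a had 140 induction and 114 control counts, Hnrnpm 86 and 51, Cnot6l 74 and 108. The 3 circles of bone, BMP, TGF-beta and Wnt genes were the Lrp6 pair, both level, and Tgfbr2. Among 6 trafficking circles 1 of the 2 from Uso1 was called, higher. Among 6 adhesion and actin circles Ank2, a spectrin adaptor, was higher with 41 induction and 15 control counts (2.51, 1.36 to 4.88). In that list 1 of the 2 circles of Afap1 was lower. Over all listed circRNAs, 7 of 131 from trafficking genes were higher and 8 lower. For adhesion and actin genes 6 of 132 were higher and 15 lower, and for bone, BMP, TGF-beta and Wnt genes 4 of 57 and 8.

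**Figure D5:**
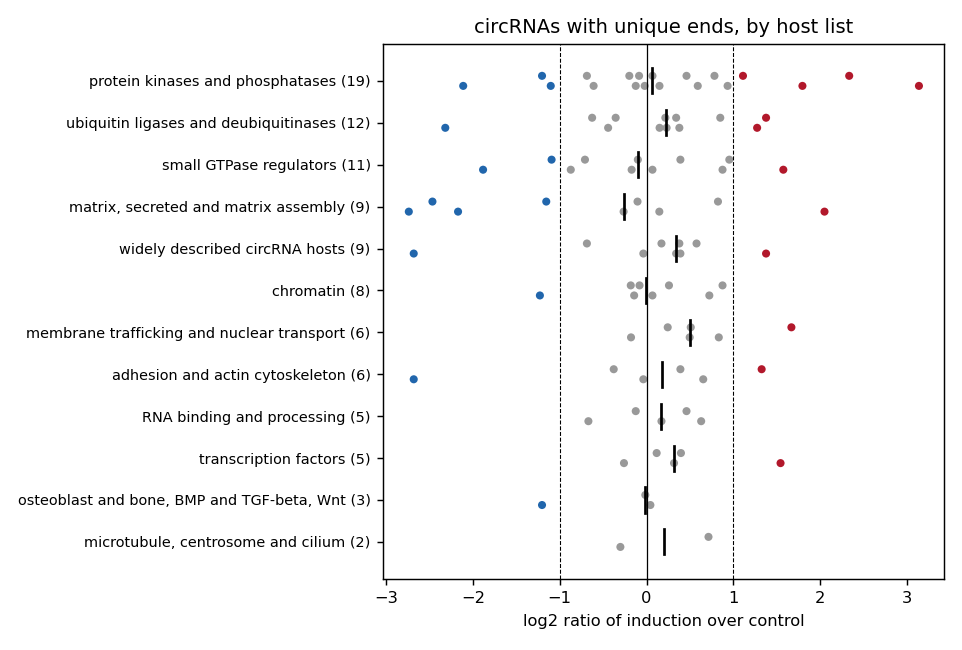
Log2 ratio of induction over control for circRNAs with unique ends in each host list (the number in brackets), with the list median as a bar; red and blue points passed 2-fold beyond counting error. Matrix hosts show 4 blue points and 1 red point, and chromatin hosts 1 blue point among 8.

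Circles with multi-copy names alone made up 29 of the 289 and had 2360 induction and 2880 control counts, 12.1% of counts of circles with unique ends in induction and 16.2% in control. The circle at chr6:4518806-4520635 alone gave 288 of these induction counts and 829 of these control counts. Of the 29 circles, 7 were called, 2 higher and 5 lower. This was 24.1%, against 27.0% over all 289 and 18.5% over all listed circRNAs. The host of such a circle was not determined, so its counts are not given to a gene here. In the authors' deposited table, 104 of the 289 circles had an FDR under 0.05, 36%, against 16.9% of all listed circRNAs. These 2 shares are not at like counts, since the rule kept circles of 50 or more counts and 3197 listed circRNAs had fewer. Of the 78 circles called here, 76 were among the 104. That FDR compares 2 columns of reads and holds no spread between rats.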

How the data were processed

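RNA from 3 induction and 3 control samples was sequenced after linear RNA was removed, per the labels' protocols. The submitters' processing notes list FastQC and BWA, without versions, and the build Rnor_6.0. For the circRNA caller, its filters, duplicate reads and the pooling of samples into columns, the steps were not given in the sources used here. Per the file headers, the deposited data hold 1 Expression column per group. Its whole numbers were taken here as counts of reads over a back-splice junction. The file headers name TPM columns and give no formula for them. The deposited TPM values were matched here by counts over 1 total per column scaled to 1000000, with no length correction. The authors' log2 ratio sets induction TPM over control TPM. The p-value and FDR columns are the authors', from a test that no header or label names.

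From the counts, ratios with exact 95% intervals were computed here in Python 3.11.15 with scipy 1.17.1, and the calling rule was tested on simulated data. Scaling alternatives used edgeR 4.0.16 (TMM factors) and DESeq2 1.42.0 (size factors) in R 4.3.3. With 1 column per group, edgeR's test could not be run and no p-value is given. The circRNAs named are the 20 with the highest sums, the 10 largest ratios each way among those called, the 10 steadiest with at least 200 counts, in each host list those called and the 3 with the highest sums, hosts with 2 members, and those beside the minimum sum. Some circRNAs that this choice covers are not reported here. Pairs of circles of 1 host shown beside these were chosen after their values were seen. The members and lists were chosen with earlier results of these data known. Coordinates of circRNAs are on Rnor_6.0 and those of promoters on GRCr8. No back-splice sequence is shown, because no genome of the files' build was used here.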

Additional observations from a re-analysis of the deposited data

How the results depend on the processing

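No paired analysis was possible because the table pools the samples of a group into 1 column. For the same reason no sample could be left out in turn. The count of 78 circles called became 30 (13 higher, 17 lower of 127) at a minimum sum of 100, 152 (82 higher, 70 lower of 523) at a minimum sum of 30 and 125 (69 higher, 56 lower) at a threshold of 1.5-fold. At a minimum sum of 100, 32 of 214 circles with a shared end were called and the Spearman correlation of circles with unique ends was 0.352. With totals of the listed counts every log2 ratio shifted by -0.13, the median log2 ratio became -0.029 and the calls were 35 higher and 43 lower. With edgeR's TMM factors the calls were 40 higher and 37 lower, with DESeq2 size factors 45 and 36, and with totals without collagen genes 36 and 40. Insr (0.98 on the log2 scale) was no longer called and Arhgap21 (-1.01) was called with listed totals, and Gnaq (-0.96) was no longer called and Arfgef2 (1.01) was called with DESeq2 size factors. The largest shift under these 4 scalings was this -0.13, so no call at 2-fold could turn to the other direction. Circles near equal levels crossed 0, such as the Lrp6 circle with the higher counts (-0.09 on the log2 scale with listed totals). The share of counts in circles with unique ends became 8.78% in induction and 8.74% in control over the totals behind TPM, and 18.3% in induction and 19.2% in control over listed counts without collagen genes. Each alternative changes the rows, the totals or the threshold used. The counts of a column limit precision, as intervals at 50 to 52 counts spanned 3.67-fold in the median.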

Other observations

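The circles here come from no fixed list and were picked after their values were seen, so their directions say nothing of a group of genes. Uhrf1, which maintains DNA methylation at replication, had 26 induction and 56 control counts (2.35-fold lower, 1.45 to 3.90). Prim2, a subunit of DNA primase, had 19 induction and 37 control counts (2.12-fold lower, 1.19 to 3.91), and Kif20a, a kinesin of cytokinesis, had 21 induction and 52 control counts (2.70-fold lower, 1.60 to 4.72). Anapc7, a subunit of the anaphase-promoting complex, had 39 induction and 12 control counts (ratio 2.98, 1.53 to 6.25). The repair polymerases Polh and Polk had 71 induction and 80 control counts and 45 induction and 41 control counts, with intervals that include equal levels. Pcsk5, a proprotein convertase, had 44 induction and 128 control counts (3.17-fold lower, 2.24 to 4.57), while Furin, another convertase, had 46 induction and 34 control counts. Lifr, the receptor for leukemia inhibitory factor, had 112 induction and 46 control counts (ratio 2.23, 1.57 to 3.22).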
